A study of Mus musculus with 4 samples.

Results

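The 9 genes described here encode myoglobin (Mb), the inducible haem oxygenase (Hmox1) and 7 enzymes of haem synthesis (Alas1, Alad, Uros, Urod, Cpox, Ppox and Fech). They were measured by 14 of the 23599 probe sets tested, and they are 9 of 10926 genes that could be named. A probe set belonged to a gene when the platform annotation gave it exactly 1 gene symbol. The genes were chosen by function with the differences between Blnc1 and vector cells already known, and Mb and Hmox1 were among the largest of them. Their differences in that same comparison are therefore given as a description, and their p-values are not printed. Where a gene of the 9 is said to pass or miss a threshold, this too only describes it. Nothing is inferred from the number past the threshold.

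The cells were wild-type mouse brown adipocytes, differentiated for 6 days from preadipocytes that expressed either an empty vector or Blnc1, a long noncoding RNA of brown fat. Each group had 2 arrays, labelled as biological replicates. The labels do not say whether these came from separate transductions or cultures, so the p-values given for other genes measure only the spread between these arrays, which may be technical. Expression was read by Affymetrix perfect-match arrays, which sample the 3' part of transcripts, and the values are log2 expression after the authors' normalization. A difference of 1 on this scale is a 2-fold change.

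Haem is the iron-containing ring that binds oxygen or carries electrons in myoglobin, haemoglobin, the cytochromes and many oxidases. Its synthesis starts in the mitochondrion, where the enzyme encoded by Alas1 joins glycine to succinyl-CoA, passes through the cytosol, and ends in the mitochondrion, where ferrochelatase (Fech) inserts iron. Haem oxygenases open the ring and release biliverdin, carbon monoxide and iron. Brown fat is rich in mitochondria, and thus in cytochromes, and is known to contain myoglobin.

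The labels were checked first on the whole arrays. The brighter probe set of C730029A08Rik, the symbol under which the annotation lists the Blnc1 transcript, had a log2 fold change of 4.63 ± 0.077 (SE). Of 12 brown adipocyte markers 6 rose (limma adjusted p under the threshold of 0.05), where 0.86% of all genes rose. In sign 11 were positive, with Cidea, a lipid droplet protein, at 3.12 ± 0.094 (SE). The array medians lay between 5.98 and 6.04 and the lower quartiles between 4.77 and 4.78. All 18 hybridisation control probe sets read lower in Blnc1 arrays (median difference -0.27). The Gapdh control read higher at its 3' than at its 5' end by 0.41 in vector and by 0.28 in Blnc1 arrays. For the Actb control this difference was 1.51 in vector and 1.34 in Blnc1 arrays. The Y-linked Eif2s3y, Uty and Kdm5d were lower in both Blnc1 arrays (log2 fold changes of -1.18, -1.02 and -0.87) and Xist was higher (0.55). These shifts separate the same groups of arrays as every value below, and their part in those values was not tested. In samples of many cells, more cells of a type and more RNA per cell cannot be told apart.

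Start-site sequence was available for 7 of the 9 genes, as 12 windows of 250 bases upstream of a RefSeq start (assembly GRCm38.p6), and none is shown for Hmox1 and Fech. The sequence of Mb is shown because it differed most, and those of Alas1 and Uros for a shared motif. Mb has a distant start and a close pair of starts. The window before the first of that pair lies on the minus strand at chr15:77022788-77023037. Capitals mark, in order, the E-box CAGCTG, a match to the antioxidant response core TGACNNNGC, and the E-box CACTTG.

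Mb: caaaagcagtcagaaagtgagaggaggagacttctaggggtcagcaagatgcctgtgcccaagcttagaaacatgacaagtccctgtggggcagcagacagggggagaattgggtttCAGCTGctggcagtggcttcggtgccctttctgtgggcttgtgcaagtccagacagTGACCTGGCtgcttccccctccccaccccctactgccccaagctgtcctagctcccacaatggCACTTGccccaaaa

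The antioxidant response core, searched on both strands, was found in 2 of the 12 windows, which are the overlapping Mb windows and share the same match. It occurs in 10.2% of all 32851 windows of this length. E-boxes (CANNTG, both strands) were in 9 of the 12 windows and in 66.2% of all windows. The nuclear respiratory factor motif (GCGC, any 2 bases, then GCGC, on both strands), whose factor is known to act on genes for mitochondrial proteins, was in 1 Alas1 and 1 Uros window, against 4.98% of all windows. The Alas1 window held it at 2 places, 224 to 215 and 195 to 186 bases before the downstream start, and the Uros window at 47 to 38 bases before its upstream start. These stretches lie on the minus strand at chr9:106247940-106247959, chr9:106247911-106247930 and chr7:133709328-133709347, with the motif in capitals.

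Alas1, far site: ggcgcGCGCGTGCGCgcggc
Alas1, near site: ccaagGCGCATGCGCggcgg
Uros: acactGCGCCTGCGCgagtc

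A match describes letters only and says nothing of binding in these cells.

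Mb, the oxygen store of muscle and brown fat, differed most. On its brighter probe set the vector arrays read 4.86 and 5.27 and the Blnc1 arrays 7.25 and 7.35. Both Blnc1 arrays lay far above both vector arrays, with a gap of 1.99 between the nearest of them. The log2 fold change was 2.24 ± 0.14 (SE, n = 2 arrays per group), a 4.72-fold difference and the fourth-largest rise, as rank 4 among the 10926 genes. The vector values lie close to the lower quartile of the arrays.

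The second Mb probe set did not show this difference. It read 4.50 and 4.27 in vector arrays and 4.29 and 4.47 in Blnc1 arrays, below the lower quartile of every array. The groups overlapped, and the log2 fold change was -0.012 ± 0.11 (SE). The mean of both Mb probe sets gave 1.11 in place of 2.24. The positions of the probe sets on the Mb transcripts were not analysed here.

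Hmox1, which opens the haem ring and is known to be induced by haem and oxidative stress, had 1 probe set. It read 5.85 and 6.02 in vector arrays and 7.22 and 7.53 in Blnc1 arrays. The groups were separated by 1.20, more than either replicate difference (0.17 in vector and 0.31 in Blnc1). The log2 fold change was 1.44 ± 0.13 (SE), a 2.71-fold difference that ranked 10 among all genes.

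Mb and Hmox1 were the 2 genes of the 9 past the adjusted p threshold of 0.05, both of them higher in Blnc1 cells. Over all genes 1.23% passed (limma, Benjamini-Hochberg), with 0.86% higher and 0.366% lower in Blnc1 cells. Counted by probe set, 2 of 14 passed, against 0.928% of all probe sets. Fits with 1 array left out called far fewer genes in all. With either Blnc1 array left out, Mb and Hmox1 were not among those called. The log2 fold changes were then 2.29 (without replicate 1) and 2.19 (without replicate 2) for Mb, and 1.59 and 1.28 for Hmox1.

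**Figure D1:**
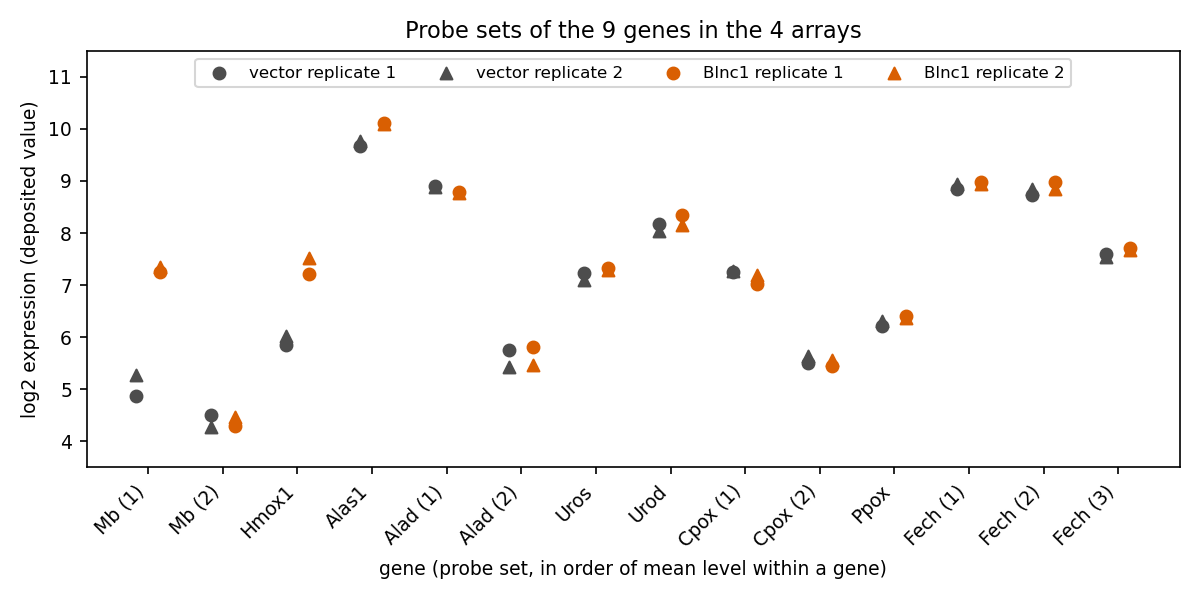
Log2 expression of the 14 probe sets in the 4 arrays, with vector arrays in grey, Blnc1 arrays in orange, circles for replicate 1 and triangles for replicate 2. The brighter Mb probe set and Hmox1 show a wide gap between the groups, while the second Mb probe set and most enzymes lie at nearly the same level in all 4 arrays.

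Alas1, which catalyses the first and rate-limiting step of haem synthesis outside the red cell lineage, came next. The vector arrays read 9.68 and 9.78 and both Blnc1 arrays 10.1. The Blnc1 arrays were higher by at least 0.32, and they differed from each other by -0.0061 (replicate 2 minus replicate 1). The log2 fold change was 0.38 ± 0.080 (SE), a 1.30-fold difference above 96.0% of all genes. Alas1 did not reach the threshold in this fit. It did when the variance prior followed intensity, in a fit that called 1237 genes in place of 134.

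Alad, Uros and Urod, which act in the cytosol, showed small differences. Alad, which joins molecules of aminolevulinic acid into the first pyrrole, read 8.90 and 8.88 in vector and 8.78 and 8.77 in Blnc1 arrays on its brighter probe set. The Blnc1 arrays were thus slightly lower, with a log2 fold change of -0.12 ± 0.075 (SE), and replicates differed by only -0.014 and -0.013. The dimmer Alad probe set separated the replicates instead. It read 5.76 and 5.42 in vector and 5.82 and 5.47 in Blnc1 arrays, so replicate 2 was lower by 0.34 and 0.35, and the group difference was 0.051 ± 0.16 (SE).

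Uros, which closes the tetrapyrrole ring, read 7.23 and 7.10 in vector and 7.32 and 7.28 in Blnc1 arrays. The groups did not overlap but came within 0.055 of each other, and the log2 fold change was 0.14 ± 0.084 (SE). Urod, which trims the side chains of the ring, read 8.18 and 8.03 in vector and 8.35 and 8.15 in Blnc1 arrays. These groups overlapped, with a log2 fold change of 0.15 ± 0.10 (SE) against a replicate difference of -0.20 in Blnc1 cells.

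The last 3 enzymes act in the mitochondrion. Cpox, coproporphyrinogen oxidase, read 7.26 in both vector arrays and 7.02 and 7.19 in Blnc1 arrays. It was the lowest of the 9 genes in log2 fold change, at -0.16 ± 0.090 (SE), and its second probe set stood at -0.065 ± 0.092 (SE) with overlapping groups. Ppox, protoporphyrinogen oxidase, read 6.21 and 6.31 in vector and 6.40 and 6.37 in Blnc1 arrays, a log2 fold change of 0.13 ± 0.081 (SE).

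Fech, which completes haem, had 3 probe sets that gave similar values. The brightest read 8.84 and 8.95 in vector and 8.99 and 8.94 in Blnc1 arrays, with overlapping groups and a log2 fold change of 0.069 ± 0.081 (SE). The other two stood at 0.12 ± 0.090 and 0.13 ± 0.077 (SE), and their groups were separated by 0.0017 and 0.085.

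Taken by gene, 5 of the 7 enzymes had a positive log2 fold change and 2 a negative one (Alad and Cpox). Their median was 0.13, against 0.0073 over all genes, of which 51.6% were positive. The enzyme median was 0.050 without Blnc1 replicate 1, 0.072 without vector replicate 1 and 0.077 without vector replicate 2. None of the 7 passed the threshold in limma's adjusted test, and 1 (Alas1) had an unadjusted p under 0.05, against 20.7% of all genes. The middle 50% of all genes lay between -0.10 and 0.12. Across the 14 probe sets the groups did not overlap in 9, with Blnc1 above in 7 and below in 2. This happened in 50.4% of all probe sets.

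**Figure D2:**
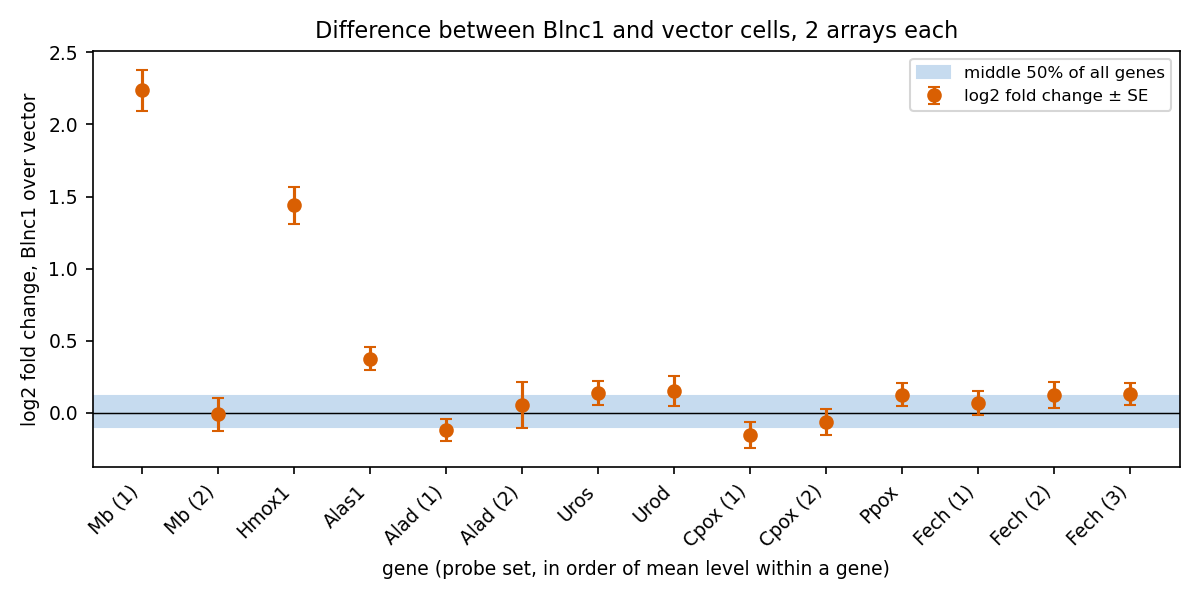
Log2 fold change (Blnc1 over vector) of the 14 probe sets with its standard error, 2 arrays per group; the blue band spans the middle 50% of all genes, from -0.10 to 0.12. Mb (first probe set), Hmox1 and Alas1 stand highest, at 2.24, 1.44 and 0.38, and the other enzymes lie within 0.16 of 0. By the brightest probe set of each, Uros, Urod and Ppox lie just above the band and Alad and Cpox just below it. The brightest Fech probe set lies inside the band and its others just above.

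The replicates were compared within each group, a contrast that did not enter the choice of the genes. Replicate 2 was higher than replicate 1 in both groups for 4 of the 14 probe sets, lower in both for 5, and of opposite direction for 5. The brighter Mb probe set and Hmox1 were among the first 4, by 0.40 and 0.097 for Mb and by 0.17 and 0.31 for Hmox1 (vector and Blnc1). The group difference exceeded both replicate differences in 7 of the 14 probe sets and in 38.5% of all probe sets.

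The genes whose 4 array values were most like those of Mb and Hmox1 were then listed. Likeness was the root mean square distance between log2 values after subtracting each gene's mean over the 4 arrays. Nearest to Mb were 2610528A11Rik (distance 0.343), Itih5, Stbd1, Ucp1 and Hmox1 (0.415). Nearest to Hmox1 were Cpt1b, which admits fatty acids to mitochondria (0.088), Stbd1, a glycogen-binding protein (0.099), Itih5, 2610528A11Rik and the cytochrome c oxidase subunit isoform Cox7a1 (0.128). Mb thus lay farther from its nearest gene than Hmox1 did from any of its 5. With 4 arrays this likeness rests almost wholly on the size of the group difference.

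**Figure D3:**
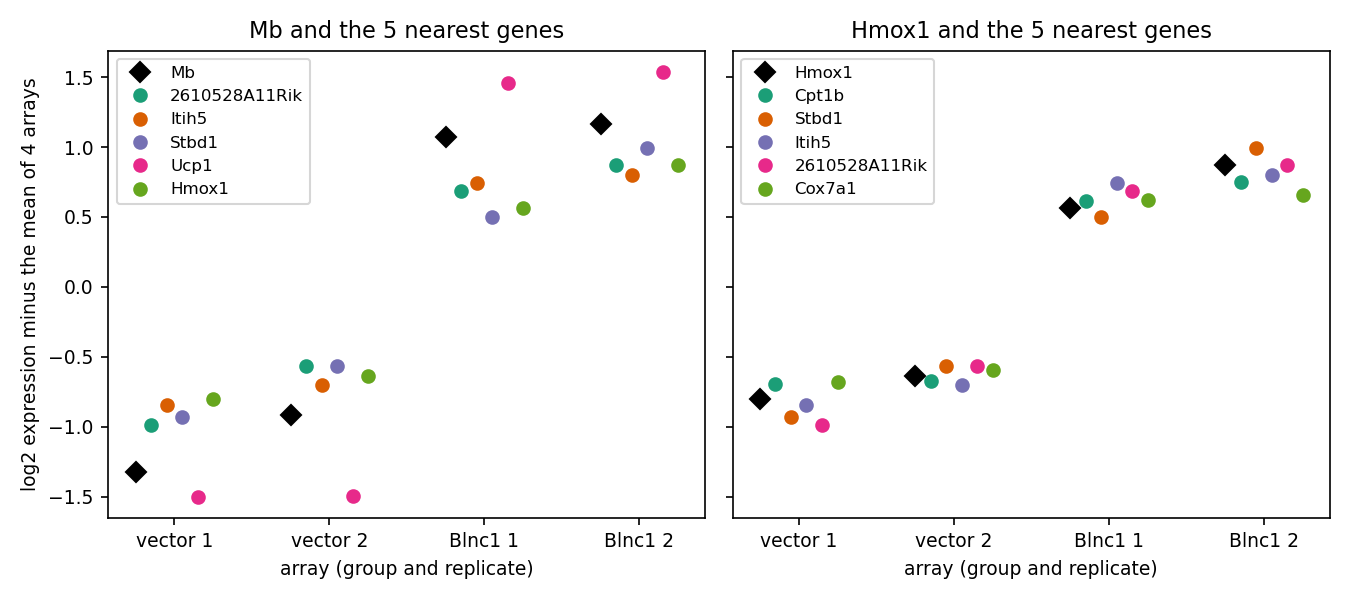
Log2 expression minus the gene's mean over the 4 arrays for Mb (left) and Hmox1 (right), each as black diamonds beside its 5 nearest genes as coloured circles; the x axis gives the array. Mb spans a wider range than 4 of its 5 neighbours and a narrower one than Ucp1, and the Hmox1 points lie among those of their neighbours.

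Other genes of haem synthesis, mitochondrial transport and haem export were measured for 17 of 23 listed, and no member passed. At an unadjusted p under 0.05, 1 was higher and 2 were lower, against 20.7% of all genes in either direction, and the median log2 fold change was 0.088. Flvcr1, which exports haem from the cell, read 6.82 and 7.0 in vector and 7.64 and 7.38 in Blnc1 arrays. Its groups did not overlap, at 0.60 ± 0.12 (SE, limma adjusted p = 0.0824). The haem-binding proteins Pgrmc1 and Hebp1 stood at -0.24 ± 0.076 and -0.23 ± 0.084 (SE), with limma adjusted p of 0.182 and 0.216.

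Beside Hmox1, 8 of 10 other genes of haem breakdown and haem or globin handling were measured, and none passed (limma), with 1 at an unadjusted p under 0.05 against 20.7% of all genes. That was Hmox2, the constitutive haem oxygenase, which read 8.92 and 8.86 in vector and 9.26 and 9.14 in Blnc1 arrays. The groups did not overlap, at 0.31 ± 0.085 (SE, limma adjusted p = 0.145). Blvra, which reduces biliverdin to bilirubin, stood at 0.19 ± 0.089 and the haem scavenger Hpx at 0.26 ± 0.12 (SE). The globins Cygb and Ngb, both dim, stood at -0.12 and -0.069, and the haemoglobin genes are given below with the erythroid markers. Of Mb, Cygb and Ngb, only Mb had a large positive value, on its brighter probe set alone. Its dim second probe set stood at -0.012.

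Enzymes and cytochromes that carry haem were mixed in sign. At an unadjusted p under 0.05 in limma, 6 were lower and none higher, against 20.7% of all genes in either direction. Of 22 measured 2 fell and none rose, where 0.366% of all genes fell and 0.86% rose (limma). Of the 22, 14 were negative and the median was -0.066. Over all genes 51.6% were positive and the median was 0.0073. Cyp2e1, a cytochrome P450 of small-molecule oxidation, fell by 0.83 on the log2 scale (SE 0.10, limma adjusted p = 0.0384), from 4.94 and 4.80 in vector to 4.13 and 3.94 in Blnc1 arrays. Cyp2e1 was dim: its vector values lay close to the lower quartile of the arrays and its Blnc1 values below it. Cyp51, the haem enzyme of sterol synthesis, fell by 0.68 (SE 0.092, limma adjusted p = 0.0455), from 9.83 and 9.77 to 9.21 and 9.03. Cyp1b1 and the peroxidase Pxdn stood at -0.46 ± 0.083 and -0.44 ± 0.080 (SE, both limma adjusted p = 0.0725), and Gucy1b1, the haem-binding subunit of guanylate cyclase, at -0.27 ± 0.087 (limma adjusted p = 0.182). Of the respiratory haem proteins, Cycs stood at 0.060 and Cyc1 at 0.050, and the complex II subunits Sdhc and Sdhd at 0.14 and 0.15. Both Blnc1 arrays lay above both vector arrays for each of the 4, by only 0.0062 for Cycs. In 50.4% of all probe sets the groups did not overlap, in either direction. The other Cycs probe sets stood at -0.031 and 0.091. Neither call among the 22 held when any 1 array was left out, in fits that called far fewer genes in all.

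Hmox1 is a known target of the activator NRF2 and the haem-sensing repressor BACH1, so 20 other measured targets of that pair were examined. Of these 1 rose and none fell, where 0.86% of all genes rose and 0.366% fell (limma). In sign, 10 were positive and 10 negative, and the median was 0.0051. The one that rose was Slc40a1, ferroportin, the iron exporter. It read 5.85 and 5.91 in vector and 6.86 and 6.88 in Blnc1 arrays, higher by 0.99 ± 0.077 on the log2 scale (SE, limma adjusted p = 0.0177). Its second, dimmer probe set stood at 0.27 ± 0.16 (SE, limma adjusted p = 0.411), and no gene of the list passed when the probe sets of each gene were averaged. The Slc40a1 call was also lost in most fits with 1 array left out, which called far fewer genes in all. The sulfiredoxin gene Srxn1 stood at 0.50 ± 0.17 (limma adjusted p = 0.198), its vector arrays differing by 0.49, and its other probe sets stood at 0.17 and 0.16. Glutathione reductase, Gsr, and the glutathione transferase Gstm1 stood at -0.31 ± 0.077 and -0.26 ± 0.077 (SE; limma adjusted p = 0.122 and 0.158), and Nqo1, a widely used NRF2 target, at -0.26.

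Regulators known to act on these genes were measured for 19 of 23 listed, and 1 rose, where 0.86% of all genes rose (limma). Maff, a small MAF protein that pairs with NRF2 or BACH1, read 5.74 and 5.82 in vector and 6.49 and 6.71 in Blnc1 arrays, higher by 0.82 ± 0.099 on the log2 scale (SE, limma adjusted p = 0.0382). The Maff call was lost when any 1 array was left out, in fits that called far fewer genes in all. Nfe2l2, which encodes NRF2, and Bach1 stood at 0.072 and 0.0067. The coactivator Ppargc1b, the factor Nrf1 and the receptor Esrra, regulators of mitochondrial genes, stood at 0.28 ± 0.075, 0.27 ± 0.084 and 0.27 ± 0.091 (SE), with limma adjusted p of 0.134, 0.176 and 0.200.

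Hypoxia-responsive genes were examined because low oxygen is known to act on Hmox1 and on Mb. None of 20 measured passed in limma's adjusted test, while 13 were higher and none lower at an unadjusted p under 0.05. Over all genes 20.7% had such a p, in either direction. The median was 0.29, with 18 positive. When the variance prior followed intensity 11 of the 20 passed, in a fit that called 1237 of all 10926 genes in place of 134. Egln3, an oxygen-sensing hydroxylase, read 7.69 and 8.18 in vector and 9.03 and 9.41 in Blnc1 arrays, at 1.28 ± 0.20 (SE, limma adjusted p = 0.0573), and its second probe set stood at 0.82 ± 0.31 (SE). The histone demethylase Kdm3a stood at 0.55 ± 0.11 and Ndrg1 at 1.18 ± 0.24 (SE, limma adjusted p = 0.0824 and 0.0866). Ndrg1 was dim in vector arrays, at 4.21 and 4.52, below the lower quartile, and read 5.18 and 5.90 in Blnc1 arrays. Replicate 2 was higher in both groups for 17 of the 20 genes, and for 3 of the 9 genes described here. The share over all genes was not determined. The part of these shifts in the Mb and Hmox1 values was not tested.

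Among the measured markers of striated muscle, red cells and macrophages, none passed in limma's adjusted test. At an unadjusted p under 0.05 there was 1 muscle marker, and no erythroid or macrophage marker, against 20.7% of all genes. Of 8 measured striated muscle markers 7 lay below the lower quartile in every array. Their summed log2 level was 34.4 and 35.2 in vector and 35.5 and 35.1 in Blnc1 arrays. Des, desmin, stood at 0.37 ± 0.11 and the troponin genes Tnnc1 and Tnnc2 at 0.29 ± 0.12 and -0.25 ± 0.12 (SE). The muscle regulator Myog and the creatine kinase Ckm stood at 0.060 and 0.059, with Myog at no more than 4.27 in any array.

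Of 4 measured erythroid markers 2 lay below the lower quartile in every array, and their sums ranged from 20.3 to 20.4 in vector and from 20.2 to 20.3 in Blnc1 arrays. On the probe sets counted here, the haemoglobin genes Hba-a1 and Hbb-b2 were not dim. Hba-a1 read 6.13 and 6.19 in vector and 6.04 and 6.13 in Blnc1 arrays, close to the array medians. A second Hba-a1 probe set was dim, with means of 4.38 in vector and 4.31 in Blnc1 arrays, and stood at -0.062. On the counted probe sets Hba-a1 and Hbb-b2 had log2 fold changes of -0.073 and -0.093, with Epor at 0.044 and Klf1 at 0.035. All 4 measured macrophage markers lay below the lower quartile, with sums of 17.2 to 17.4 in vector and 17.5 in both Blnc1 arrays. Cd14, Adgre1 and Fcer1g stood at 0.16, 0.10 and -0.065. Since 14, 12 and 10 further markers of these lists were not analysed here, the lists cover each cell type only in part.

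**Figure D4:**
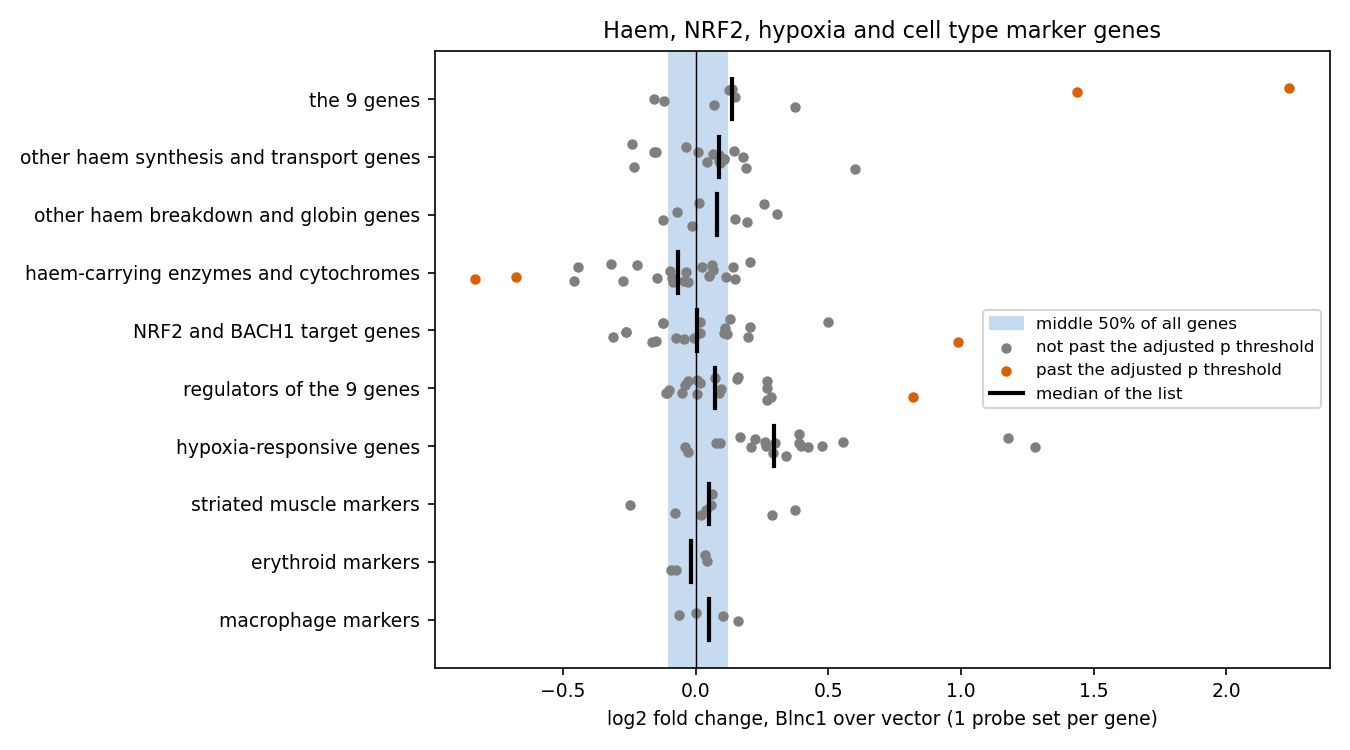
Log2 fold change (Blnc1 over vector) of single genes in each list, 1 probe set per gene; orange points passed the adjusted p threshold, black bars are list medians and the blue band spans the middle 50% of all genes. Mb and Hmox1 stand apart at the right of the top line, the hypoxia list has a median of 0.29, and the marker lists have medians from -0.019 to 0.051, with Des at 0.37 the highest of their genes.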

How the data were processed

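Total RNA of 4 mouse brown adipocyte samples was hybridised to single-colour Affymetrix arrays, as the labels' protocols say. The values analysed are the authors' deposited log2 expression; the submitters' processing notes name RMA, affy and limma without a version or an order. The log2 scale was read from the range of 2.70 to 13.3. Of 23634 probe sets 35 controls were left out; 16692 of the rest had 1 gene symbol in GEO's platform annotation, 372 several and 6535 none.

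Blnc1 was compared with vector by limma 3.58.1 (R 4.3.3; lmFit, eBayes, two-sided, no covariate or filter), with Benjamini-Hochberg adjustment over all 23599 probe sets and a threshold of 0.05. The fit was tested on simulated data. Where a gene had several probe sets, the one of highest mean across all 4 arrays stood for it in counts of genes. Named genes were every probe set of the 9 genes, all genes past the threshold and the 3 next smallest p in each list, and the 5 nearest patterns; Nqo1, Nfe2l2, Bach1, Cycs, Cyc1, Sdhc, Sdhd, Cygb, Ngb, Myog, Ckm, the erythroid and macrophage markers and the genes used to check the arrays were added after their values were seen, Cidea excepted. The 9 genes and all lists were chosen with earlier results of these data known. Alternatives are in the closing section. The number of arrays limits the precision.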

Additional observations from a re-analysis of the deposited data

How the results depend on the processing

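The log2 fold changes of Mb and Hmox1, and those of the 7 enzymes, kept their sign in the 8 alternatives that can change a fold change (both normalizations, the choice or mean of probe sets, and 4 left-out arrays). Leaving out 1 array gave 2.04 to 2.44 for Mb, 1.28 to 1.59 for Hmox1 and 0.050 to 0.14 for the enzyme median. These fits called far fewer genes in all, so their counts of genes past the threshold are not compared. Such fits have 1 group with a single array, which is assumed to vary like the other group. A variance prior that follows intensity called 1237 genes in place of 134, with 3 in the other haem synthesis list, 1 in the breakdown list, 5 haem-carrying genes, 5 NRF2 and BACH1 targets, 2 regulators and 11 hypoxia genes. At an adjusted p of 0.1 these were 1 for synthesis, 4 haem-carrying and 3 hypoxia genes (545 genes in all). Repeated quantile normalization left 0 regulators (92 genes in all), and averaging the probe sets of each gene left 0 NRF2 and BACH1 targets (197). The filter on a mean of at least 5 (274 genes) and leaving out cross-hybridising probe sets (137) each gave 1 hypoxia gene. Arrays centred on their medians gave 187 genes and a robust prior 106. With the replicate number as a block (replicate block) 19 genes passed, Mb and Hmox1 among them, with 0 haem-carrying genes, 0 NRF2 and BACH1 targets, 0 regulators and 1 hypoxia gene. Deviations of same-numbered arrays correlated by 0.089, and nothing in the labels pairs them. The causes of these shifts were not tested. Differences in dim probe sets are compressed, so the sizes for Mb are limited by signal over background.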
